A study of Homo sapiens with 18 samples.

Results

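Axon guidance ligands and receptors were taken by their symbols from the gene identifiers of the 5 deposited tables: semaphorins with plexins and neuropilins, ephrins with EPH receptors, SLIT ligands with ROBO receptors, and netrins with UNC5 receptors. The rule found 58 of the 16616 identifiers in all, 27 of the semaphorin, 17 of the ephrin, 5 of the SLIT and 9 of the netrin letters. Of these, 55 are ligands or receptors. The other 3 match by their letters alone: SEMA6A-AS1 is an antisense RNA, UNC50 a protein of the Golgi, and UNC5CL a death-domain protein that resembles UNC5C.

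The study concerns CM03, a naphthalene diimide that binds G-quadruplexes, which are multi-stranded folds of guanine-rich DNA. GemMIA-R3 is 1 gemcitabine-resistant line, raised from the established human pancreatic carcinoma line MIA PaCa-2 by increasing the dose of gemcitabine over time, and the drug was withdrawn before the experiments. The 18 libraries form 6 groups of 3: GemMIA-R3 with 400 nM CM03 at 6 h and at 24 h, GemMIA-R3 controls at both times, and parental MIA PaCa-2 controls at both times. CM03 in parental cells was sequenced in an earlier study, and its comparisons are among the 5 tables. The value columns of the tables are the authors' own comparisons and no column belongs to a single library. The levels of the guidance genes were therefore not compared between cells here, library depth is not known, and the labelled cell type was not checked by its markers. The analysis rests on which genes have a row in which table and on the deposited count of putative quadruplexes (PQs) of a gene. These are properties of the tables and of the gene sequence, and they say nothing of a response to CM03.

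Guidance cues steer growing axons by attraction or repulsion. Semaphorins signal through plexins, with neuropilins as co-receptors for the secreted class, and ephrins on one cell meet EPH receptor tyrosine kinases on the next. SLIT proteins are secreted repellents read by ROBO receptors, and netrins attract through DCC or repel through UNC5. The same systems act outside the nervous system in epithelia, vessels and tumours, and SLIT and ROBO genes are known to be altered in pancreatic carcinoma.

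A PQ is a stretch with 4 runs of 3 or more G separated by loops of 1 to 7 bases. The following stretches from member promoters are shown because they are the kind of sequence that the PQ number counts. They come from RefSeq windows (GRCh38.p14) of 250 bases before to 50 after a gene's start, are written 5′ to 3′ along the gene, and carry the runs of 3 or more G in capitals, or of C where the G runs lie on the template strand.
SLIT3: GGGGGGGGGccggaGGGGtGGG
ROBO1: GGGccGGGGaggagaGGGaGGG
EFNA1: GGGcGGGGcgaGGGcGGGGcGGGG
EFNA2: GGGGtGGGccGGGGcaGGGGGcGGG
EPHB3: CCCCgCCCactccggCCCCtgagaCCCC
PLXNC1: GGGcGGGcGGGcGGG
SEMA7A: GGGGcGGGGGGaGGGGcGGGGtGGGG
SEMA3C: CCCCgCCCggtccgCCCCCgcggctCCC
NTN5: GGGattGGGGtGGGaGGGGGG
The SLIT3 stretch lies at chr5:169301168-169301189 and that of EFNA1 at chr1:155127804-155127827. In the SLIT3 stretch the long first run of G counts as more than 1 run, with a G as the loop between them. The ROBO1 stretch is at chr3:79019499-79019520, before a start inside the annotated gene rather than at its outer end. PLXNC1 has the most compact motif shown, at chr12:94148499-94148513, with loops of a single base.

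Guidance genes carried more PQs than most genes of the tables. A deposited PQ number was given for 53 members and 13503 genes in all, and it was the same in both tables of parental cells. The members had a median of 17 PQs against 5 for all genes. Of the 53 members, 46 (86.8%) lay above that median, as did 45.1% of all genes. With 23 PQs or more, 18 members (34.0%) were at or above the 90th percentile, where 10.1% of all genes lay. No member was without a PQ, while 9.97% of all genes were. PQ numbers are counts over a fixed sequence with no replicate error, and genes are not replicates, so these shares are descriptions without a test.

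By the median per gene, receptors carried more PQs than ligands in the semaphorin, ephrin and netrin systems. They carried fewer in the SLIT system, where the direction of the medians turned per kb. The ranges of receptors and ligands in PQ number overlapped in all but the SLIT system, and some medians rest on 2 or 3 genes. The medians were 27 for 9 semaphorin receptors and 14 for 15 semaphorin ligands, and 22 for 9 EPH receptors and 8.5 for 8 ephrins. In the netrin system they were 62 for 3 UNC5 receptors and 13 for 3 netrins. The SLIT ligands had a median of 93 over 2 genes, and the ROBO receptors 19 over 3. Divided by the length of the gene model used here, the receptor and ligand medians were 0.748 and 0.352 PQs per kb in the semaphorin system. They were 0.482 and 0.425 in the ephrin, 0.672 and 0.307 in the netrin, and 0.535 and 0.275 in the SLIT system. The 7 plexins with a number had a median of 0.952 per kb and the 2 neuropilins 0.154, below the semaphorin ligands. By the count made here on hg38, given below, the ephrin order per kb turned, with the ligand median above that of the receptors. In the netrin system the ligand median lay above only with NTN5 included, which has no deposited number. Over whole systems the medians were 46 for SLIT, 21 for netrin, 16.5 for semaphorin and 14 for ephrin genes. Without UNC50 the netrin median was 41.5, since that gene has 2 PQs.

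**Figure D1:**
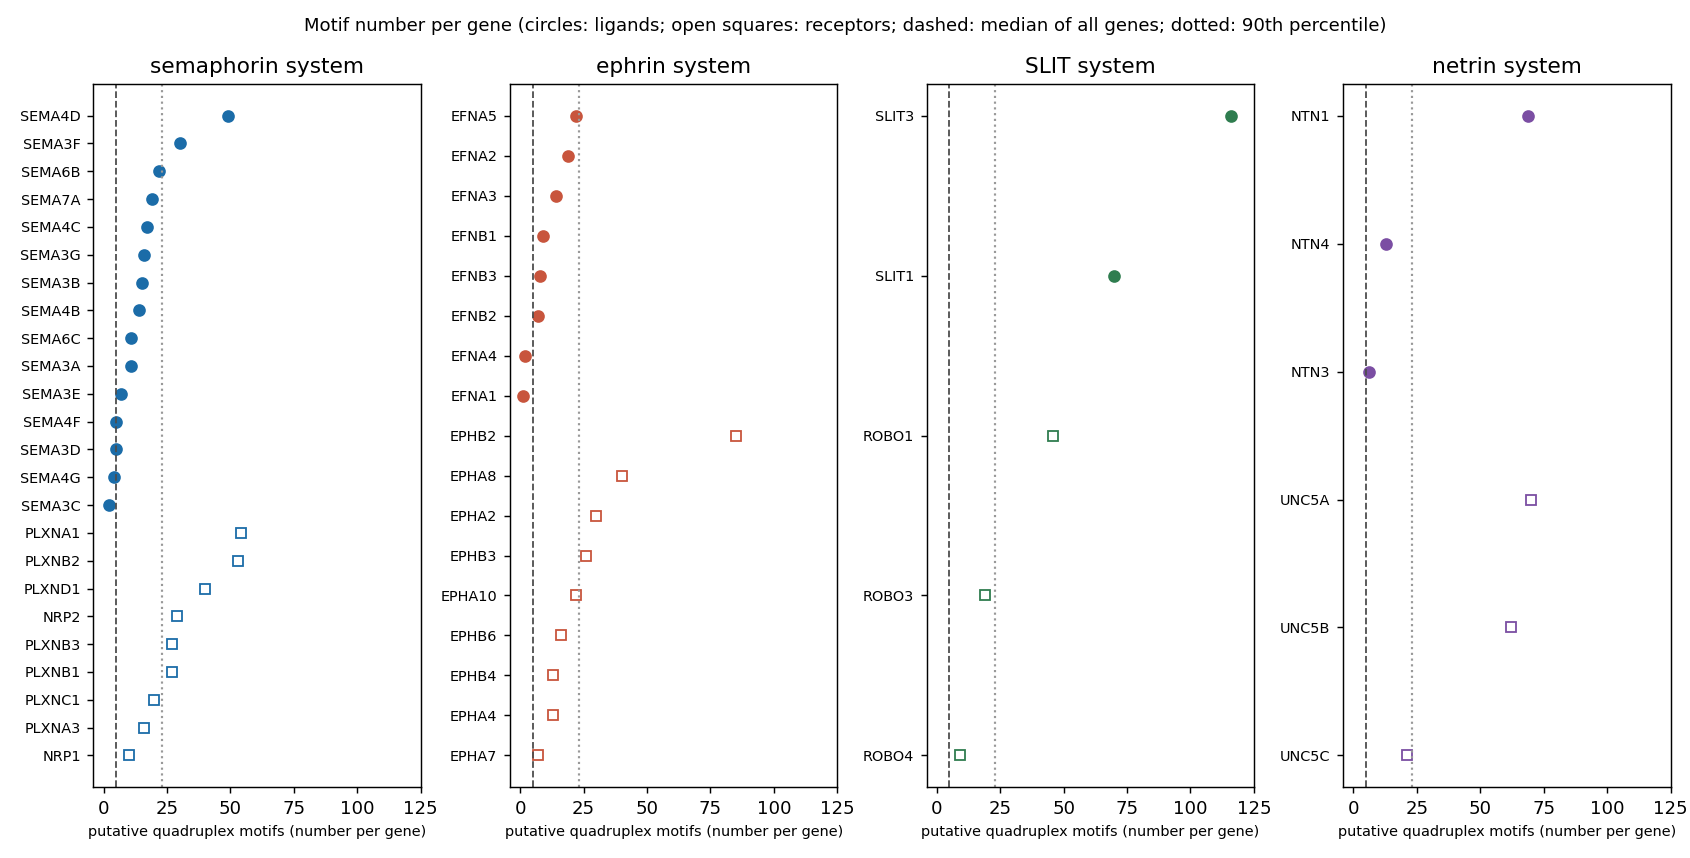
Each point is a gene, placed by its number of putative quadruplex motifs on the horizontal axis and grouped by system, with filled circles for ligands and open squares for receptors. The dashed line is the median of all genes (5) and the dotted line their 90th percentile (23); SLIT3 at 116 and EPHB2 at 85 lie farthest to the right.

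SLIT3, a secreted repellent, had 116 PQs, the most of the 53 members, and 99.7% of all genes had fewer. The gene lies on chromosome 5 (hg38, start 168661740, end 169301139) and covers 641 kb with the 2000 bases upstream. SLIT1 had 70 PQs in 190 kb of chromosome 10. ROBO1, a SLIT receptor, had 46 PQs spread over 1173 kb, the longest of the members. ROBO3, which modulates the response to SLIT at the midline, had 19 and ROBO4, the ROBO of endothelial cells, had 9. Those genes are neighbours on chromosome 11 with 2.22 kb between them and cover 18.0 and 16.8 kb. Per kb the order changed: ROBO3 had 1.05 PQs per kb, ROBO4 0.535, SLIT1 0.369, SLIT3 0.181 and ROBO1 0.0392.

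At or above the 90th percentile of all genes were 3 of the 7 genes of the netrin letters with a number, UNC50 included. UNC5A and UNC5B, repulsive netrin receptors that also act as dependence receptors, had 70 and 62 PQs, and NTN1, the founding netrin ligand, had 69. UNC5C had 21 PQs over 389 kb, a density of 0.0540 per kb where UNC5A had 0.967. NTN4, a netrin related to laminins, had 13 PQs and NTN3 had 6. NTN3 is the shortest member at 4.85 kb, so its 6 PQs give 1.24 per kb, and 97.5% of genes had a lower density.

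Among ephrin receptors EPHB2 stood apart with 85 PQs, followed by EPHA8 with 40, which lies 107 kb from EPHB2 on chromosome 1. EPHA2, a receptor often abundant in carcinomas, had 30 and EPHB3 had 26. The receptors without kinase activity were EPHA10 with 22 and EPHB6 with 16. EPHB4 and EPHA4 had 13 each, and EPHA7 had 7. Ephrins had fewer. EFNA5 had 22 PQs, EFNA2 had 19 and EFNA3 had 14, while the transmembrane ephrins EFNB1, EFNB3 and EFNB2 had 9, 8 and 7. EFNA4 and EFNA1, with 2 and 1, share a cluster on chromosome 1 with EFNA3, which lies 9.28 kb from EFNA4 and 40.3 kb from EFNA1. EFNA1 had the lowest PQ number of the 53 members, yet the motif printed above lies 60 bases before its start.

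All 7 plexins with a number lay above the median of all genes, from PLXNA1 with 54 and PLXNB2 with 53 through PLXND1 with 40, PLXNB1 and PLXNB3 with 27 each, and PLXNC1 with 20 to PLXNA3 with 16. By the deposited number PLXNB3 and PLXNB2 had the highest densities of the 53 members, 1.57 and 1.53 PQs per kb. By the count made here on hg38, given below, NTN3 had the highest with 2.68 per kb, followed by PLXNB3 with 1.92 and PLXNB2 with 1.85. The neuropilins, co-receptors of secreted semaphorins, had 29 PQs (NRP2) and 10 (NRP1). SEMA4D, a transmembrane semaphorin bound by PLXNB1, led the semaphorin ligands with 49. The other class 4 semaphorins with a number were SEMA4C with 17, SEMA4B with 14, SEMA4F with 5 and SEMA4G with 4. SEMA6B had 22, SEMA6C had 11 and SEMA7A, the membrane-anchored semaphorin, had 19.

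The secreted class 3 semaphorins fell into 2 sets by where they lie, which was seen after their values. SEMA3B, SEMA3F and SEMA3G lie on chromosome 3 in 12 to 36.0 kb each and had 15, 30 and 16 PQs, or 0.833 to 1.25 per kb. SEMA3A, SEMA3C, SEMA3D and SEMA3E lie on chromosome 7 in 182 to 539 kb and had 11, 2, 5 and 7 PQs, or 0.0110 to 0.0258 per kb. The sets did not overlap in deposited PQ number, density, length or base composition, with 57.9 to 60.6% G and C on chromosome 3 and 34.2 to 35.8% on chromosome 7. In the count made here on hg38, given below, the motif numbers did overlap. SEMA3A had 22 motifs there, above SEMA3B with 19 and SEMA3G with 21 and below SEMA3F with 32. The genes of chromosome 7 had the 4 lowest densities of the 53 members.

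PQ density followed base composition. Across the 53 members, density and the share of G and C had a Spearman's rho of 0.94, and 0.74 across 12952 genes with a gene model. Both measures come from the same sequence, so this relation is a description. PQ number and length had a rho of 0.40 across the members and 0.48 across all genes. Members still lay high after division by length, with a median of 0.482 PQs per kb against 0.114 for all genes, and 41 of 53 above that median. Their median share of G and C was 54.3% against 45.4% for all genes, and their median length with 2000 bases upstream was 41.2 kb against 34.4 kb. The part of base composition in the difference in PQ number was not tested. By density the order of the systems changed to semaphorin with a median of 0.592, ephrin 0.482, SLIT 0.369 and netrin 0.307 per kb. Without UNC50 the netrin median of the deposited number was 0.490 per kb, above the 0.482 of ephrin and 0.369 of SLIT genes.

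**Figure D2:**
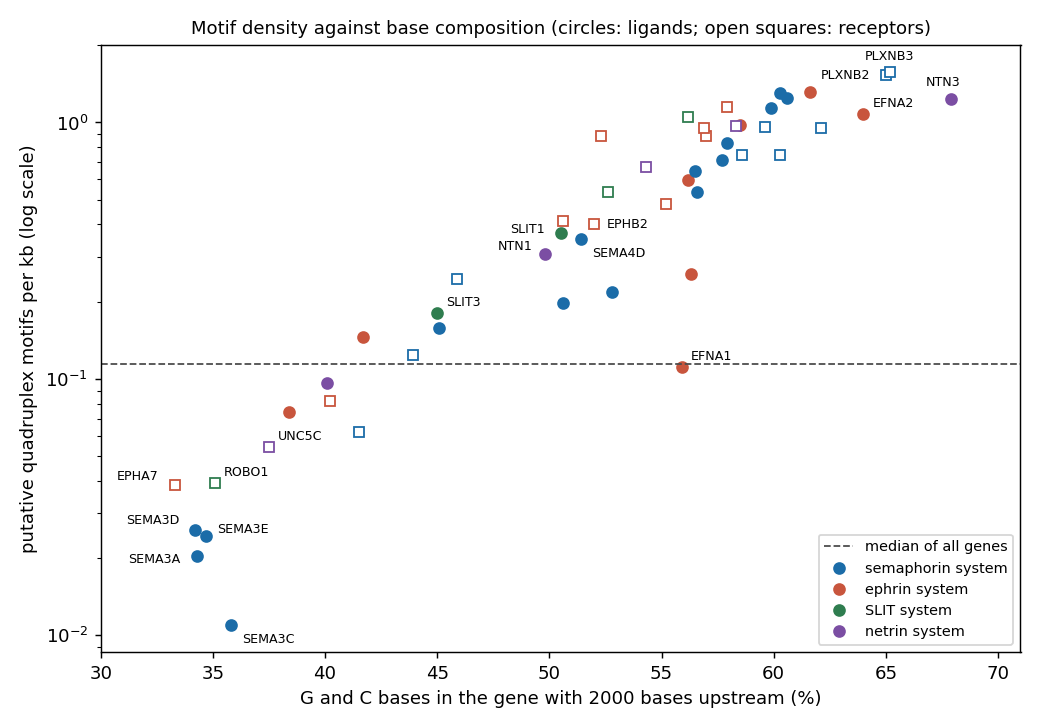
Each point is a gene, with the share of G and C bases of the gene and its 2000 upstream bases on the horizontal axis and PQs per kb on a logarithmic vertical axis; filled circles are ligands and open squares receptors. The class 3 semaphorins of chromosome 7 sit at the lower left, at 0.0110 to 0.0258 per kb, and PLXNB2 and PLXNB3 at the upper right, with the median of all genes (0.114) as the dashed line.

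The same motif was also counted here on both strands of hg38, over each gene and 2000 bases upstream, to see where PQs lie. This count was higher than the deposited number in 51 of 53 members and equal in the others, PLXNB1 and UNC50, by a median of 3, and Spearman's rho between them was 0.98. It was also higher in 69.5% of the 12952 genes with a gene model, whose median by this count was 7. The largest difference was 15, for SEMA4D, with 64 counted and 49 deposited. SEMA6B (36 and 22) and SEMA3A (22 and 11) also differed by more than 10, as did PLXNB2 (64 and 53). For the members without a deposited number the counts were 47 in PLXNA2, 21 in NTN5, 15 in SEMA4A, 6 in SEMA6A-AS1 and 4 in UNC5CL.

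Most motifs of the members were intronic. Of 1648 motifs counted in the 58 genes, 80.0% lay in introns, 13.4% overlapped an exon and 6.61% lay upstream. Across all genes the shares were 75.5%, 15.9% and 8.64%. SLIT ligands had 93.4% in introns, and ephrin ligands 62.9%, with 18.1% upstream. In SEMA3B, 11 of 19 motifs overlapped exons, and in ROBO4, 9 of 11. The 4 class 3 semaphorins of chromosome 7 had no motif in an exon.

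The G runs were split nearly evenly between the strands, with 50.7% on the coding strand in members and 82636 of 165139 in all genes. Single genes leaned to a side. UNC5A had 53 of its 72 motifs on the template strand, and EFNA5 had 18 of 23. PLXNA1 had 42 of 63 on the coding strand, PLXND1 33 of 49 and SEMA4D 43 of 64. All 4 motifs of SEMA3C lay on the template strand. EPH receptors had more motifs on the template strand in 7 of 9 genes, and ephrins more on the coding strand in 5 of 8. Of the 12952 genes with a gene model, 5345 had more on the template strand and 5509 more on the coding strand.

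Near the start of the gene, more of the members than of all genes held a motif, but the number per gene was small. Of the 58 genes, 46 (79.3%) had a motif between 2000 bases before and 100 after the start, against 55.3% of the 12952 genes with a gene model. PLXND1, a plexin of vessel patterning, had 10 motifs there, PLXNB2 had 9 and NTN3 had 7. Among receptors PLXNA1, NRP2 and EPHA4 had none, and among ligands SEMA3A, SEMA3C, SEMA3D, SEMA4C, SEMA4F and EFNB2 had none. The median was 1 in the 53 members with a deposited number and 1 in all genes. PLXND1 carried G runs on the coding strand in 9 of those motifs, as the plot of motifs around the start shows, while PLXNB2 had 4 on the coding and 5 on the template strand. PLXNA1 had none by its GENCODE start and 2 in the RefSeq window of another start.

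**Figure D3:**
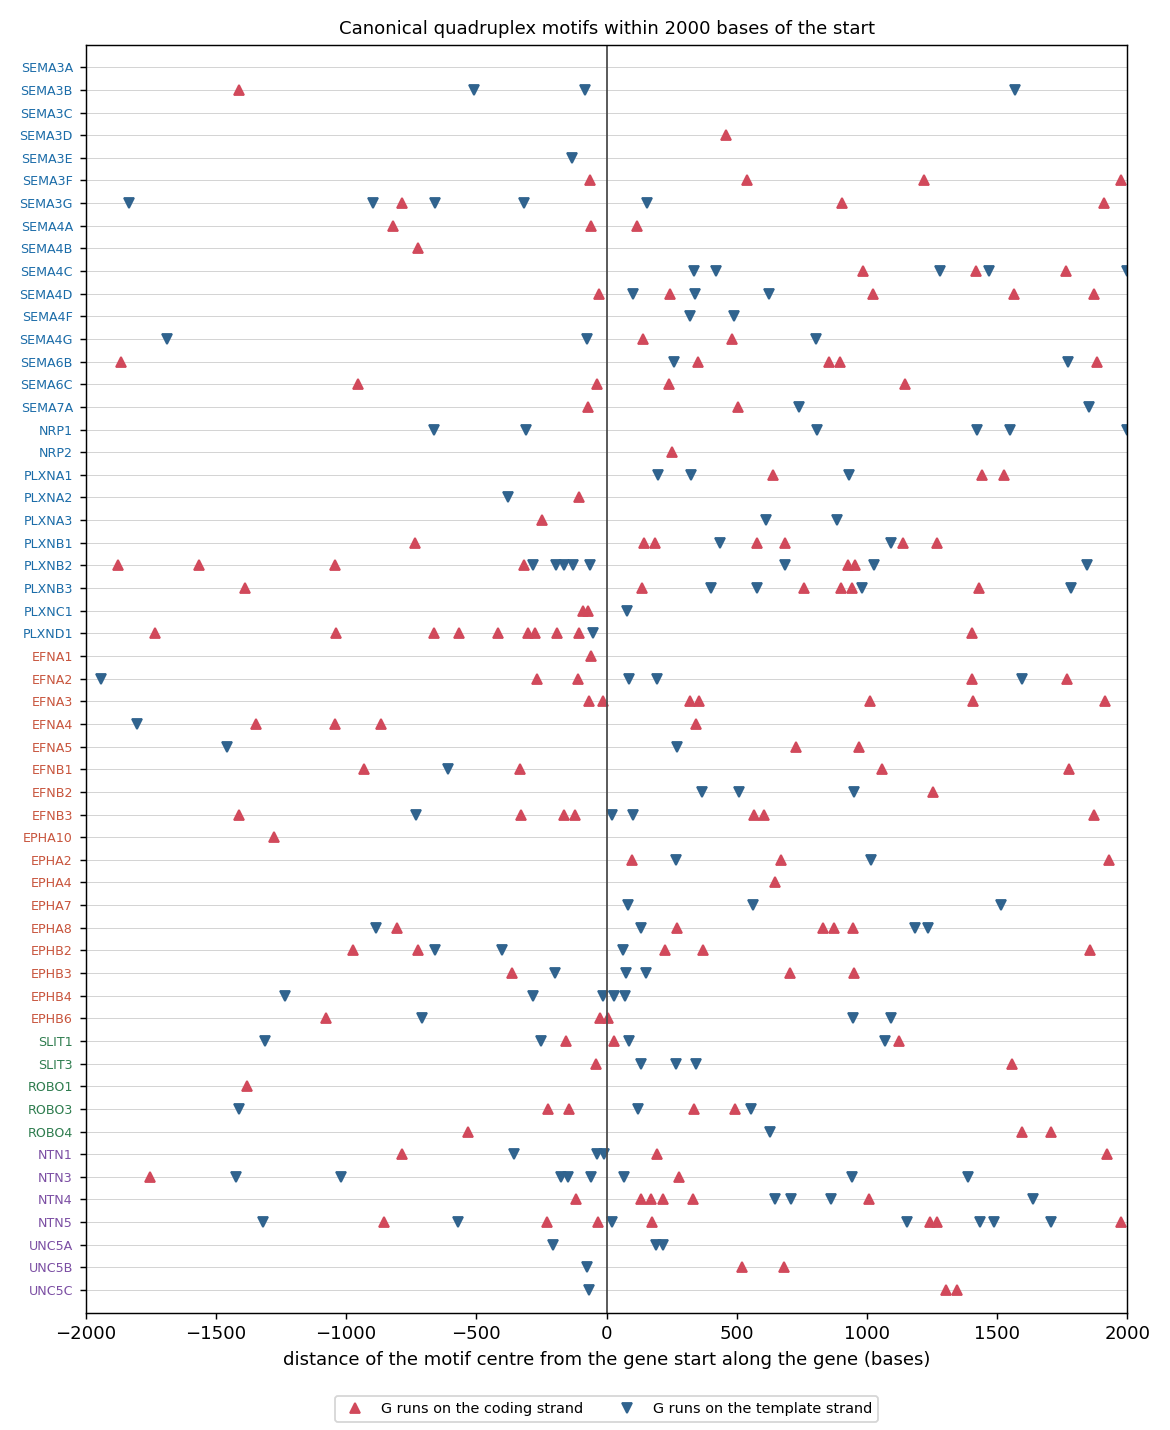
Each row is a gene, coloured by system, and each triangle a canonical quadruplex motif placed by the distance of its centre from the annotated gene start in bases, within 2000 bases to either side; upward triangles have G runs on the coding strand and downward ones on the template strand. PLXND1 and PLXNB2 have the densest rows before the start, with 10 and 9 motifs from 2000 bases before to 100 after it, and SEMA3A and SEMA3C have no motif in the plotted range.

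RefSeq promoter windows were matched for 50 members, some with several starts. A motif was found in 29 of them (58.0%), against 42.7% of the 9427 genes of the parental tables with a window and 27.9% of all 27305 genes with one. A gene was counted if any of its windows held a motif, so genes with several starts had more windows to hold one. The members had 75 windows, 35 of them with a motif. The number of windows was not computed for all genes, so the shares are not matched for it. The motif was searched on both strands as 4 runs of at least 3 G or C with loops of 1 to 7 bases. All 5 SLIT system genes had one, and 7 of 15 ephrin genes. Semaphorin ligands had one in 9 of 14 genes and their receptors in 6 of 9. Of the netrin ligands with a window 2 of 2 had one, and of the UNC5 receptors 0 of 2. None of the 3 genes that match by their letters alone had one. In the SLIT system ROBO3 had the most, with 4 motifs in the windows of 2 of its 3 starts, and SLIT1 had 2. The ephrin genes with a motif were the ligands EFNA1, EFNA2 and EFNA3 and the receptors EPHA7, EPHB3, EPHB4 and EPHB6. Of the semaphorin receptors PLXNA1, PLXNA2, PLXNB1, PLXNB2, PLXNC1 and PLXND1 had one, and of the ligands SEMA3B, SEMA3C, SEMA3E, SEMA3F, SEMA4B, SEMA4D, SEMA4G, SEMA6C and SEMA7A. The netrin genes with a motif were the ligands NTN4 and NTN5. NTN1, NTN3, UNC5B, EFNB3, EPHA10, NRP1, SEMA3A and SEMA6B had no entry. UNC5A and UNC5C had none in these windows despite 70 and 21 PQs, nor had EPHB2 with 85. SEMA3C and SEMA3E, by contrast, had a motif in the window of 1 of their starts with 2 and 7 PQs. For some of these genes the contrast depends on the start used. Relative to the GENCODE start, UNC5A had a motif centred at -204 bases and UNC5C at -66. The nearest upstream motif of EPHB2 was at -400. SEMA3C had no motif upstream of its GENCODE start, while SEMA3E had one at -134. In PLXND1 the window held 4 motifs. The one nearest the start, at chr3:129606717-129606739, had its G runs on the template strand, and the next, at chr3:129606770-129606793, on the coding strand.
PLXND1, coding strand: GGGcccGGGcgccGGGGtcGGGGG
PLXND1, template strand: CCCgggCCCgCCCCCCgcctCCC
They are shown because PLXND1 has the most motifs before its start, and because both strands are represented in this promoter.

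The genes with a row differed between the tables, and the share listed in all 5 was lowest in the netrin system. Each table of CM03 in parental cells lists 53 members. The tables of CM03 in GemMIA-R3 cells list 43 at 6 h and 50 at 24 h, and that of GemMIA-R3 against parental cells lists 50. Of the 16616 identifiers in all, these tables hold 12939, 14237 and 14047, and each table of CM03 in parental cells holds 13503. The table with the fewest members was the smallest, but those with the most members were not the largest. In all 5 tables were 42 members (72.4%), against 65.7% of all identifiers. By the letters of their symbols these were 15 of 17 ephrin, 21 of 27 semaphorin, 3 of 5 SLIT and 3 of 9 netrin genes. The 27 include SEMA6A-AS1 and the 9 include UNC50 and UNC5CL, which lie outside the systems. Of these, UNC50 alone had a row in every table. Among true netrin system genes, 1 of 4 netrin ligands and 1 of 3 UNC5 receptors had a row in every table. All 8 ephrins had a row in every table. Neither SLIT ligand had one in the tables of CM03 in GemMIA-R3 cells, while all 3 ROBO receptors had. In the tables of parental cells alone were SLIT3, NTN3, NTN4, UNC5C, EPHB6 and SEMA3E, or 10.3% of the members and 11.9% of all identifiers. PLXNA2, NTN5, SEMA4A, SEMA6A-AS1 and UNC5CL, or 8.62% of the members, had no row in the tables of parental cells, as had 18.7% of all identifiers. SEMA4A had a row only in the table of CM03 in GemMIA-R3 cells at 24 h. EPHB3 and SLIT1 lacked a row in both tables of CM03 in GemMIA-R3 cells, and NRP2 lacked one at 6 h and in the comparison of the lines. PLXNC1 and UNC5A lacked one at 6 h alone. The reason for a missing row is not given in the sources used here and was not tested, and a missing row is not read as absence of the transcript. Between the tables of CM03 in parental and in GemMIA-R3 cells, cell line and study cannot be told apart.

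**Figure D4:**
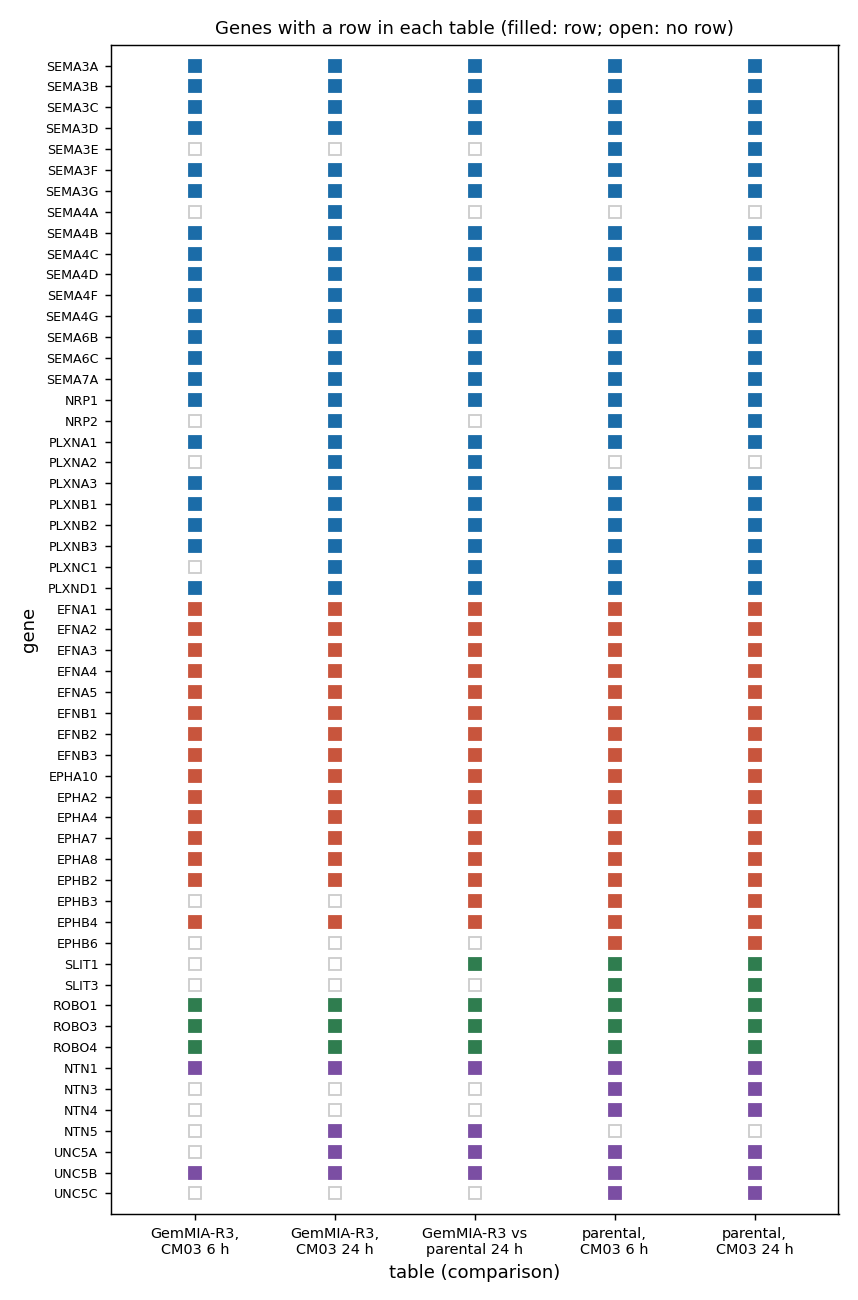
Each row is a ligand or receptor gene, coloured by system, and each column a table of 1 comparison; a filled square marks a gene with a row in that table and an open square one without. All 8 ephrins are filled throughout, while SLIT1 and SLIT3 are open in both tables of CM03 in GemMIA-R3 cells.

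Members with a row in every table had a median of 16 PQs (42 genes), and the 11 others with a number had a median of 21. For all genes both medians were 5. Per kb the direction turned, with medians of 0.535 for members in every table and 0.245 for the others, whose median lengths were 34.2 and 135 kb. SLIT3, UNC5A, SLIT1, NRP2 and EPHB3 were the members with the most PQs among those that lacked a row somewhere.

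The co-receptors and cytoplasmic partners of guidance signalling had a median PQ number between that of all genes and that of the members. Of 69 genes of this list, 64 had a number, with a median of 14.5 and 50 (78.1%) above the median of all genes. High numbers were those of PRKCZ, an atypical protein kinase C, with 78 and PAK4, a kinase downstream of CDC42, with 64. The lowest were CFL1, the actin-severing protein cofilin, with 0, MYL12B, a myosin light chain, with 1 and NCK1, an adaptor, with 2. The median density of the list, 0.144 per kb, was nearer to that of all genes than to that of the members, and 36 of 64 (56.2%) lay above the median of all genes per kb.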

How the data were processed

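RNA was sequenced from 18 libraries, aligned by the authors to hg38 with STAR 2.5b after trimming with Trimmomatic 0.36, per the submitters' processing notes, then counted with FeatureCounts and compared with SARTools, per the methods. The deposited tables hold, beside gene identifiers, the authors' own comparisons (log2 fold changes, FDR and subset marks), which were neither used nor printed. No values per library were used, so depth and its precision cannot be stated and no test between groups of cells was made. The PQ number is a property of the gene, deposited in the tables of parental cells. The authors took it from an earlier study, whose build is not given in the sources used here, over the promoter, exons and introns.

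Canonical motifs were counted here with Python 3.11.15 and pysam 0.24.0 on hg38 as non-overlapping matches on each strand, over GENCODE release 44 genes with 2000 bases upstream. Of 16616 identifiers 15674 had a gene model, 1500 of them through a RefSeq synonym, and all 58 members had one under their own symbol. The annotation has 71 protein-coding genes that match the rule, and those without a row are not analysed here. Exon means overlap with an exon of any transcript. The motif counter was tested on simulated sequences. The rule for named genes took the members with the most and fewest motifs in each system and role, those missing from a table, those with a motif in a RefSeq window, and the 3 highest and 3 lowest genes of the pathway list. One item that this rule takes is not reported here. Members and lists were chosen with earlier results of these data known. Alternatives were another count, division by length, other loops, regions and strands, overlapping motifs, fewer background genes and leaving out UNC50. Numpy 2.4.6, scipy 1.17.1 and matplotlib 3.10.9 were used.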

Additional observations from a re-analysis of the deposited data

How the results depend on the processing

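The count of members above the median of all genes was 46 of 53 with the deposited number (semaphorin 20 of 24, ephrin 15 of 17, SLIT 5 of 5, netrin 6 of 7 with UNC50 included). Of 60 alternative values, 53 were within 1.5 times these counts and 7 were not. Some of the 53 carry no information. UNC50 lies below the median, so leaving it out could not change a count. With all genes limited to those in all 5 tables the median stayed at 5, so no count could change. With the region limited to 2000 bases before to 100 after the start, the counts were 22 of 53 members, 8 semaphorin, 2 SLIT and 2 netrin genes. With RefSeq promoter windows, matched for 45 of these members, they were 27, with 7 ephrin genes and 1 netrin gene. A shorter region holds few motifs, and the medians of all genes were then 1 and 0. The share of all genes above the median of 1 was not computed. The counts for the region around the start therefore do not show whether members lay higher or lower than all genes there. A motif in that region was held by 46 of the 58 genes (79.3%) and by 55.3% of the 12952 genes with a gene model. In the RefSeq windows, a count above 0 means a motif, which 42.7% of the 9427 genes of the parental tables with a window had. Leaving out UNC50 moved the netrin median from 21 to 41.5 PQs. The order of the semaphorin and ephrin medians per kb, and of ephrin ligands and receptors per kb, differed between the deposited number and the count on hg38. Older symbols changed no member, since all matched under their own. No paired analysis was possible because no values per library were used, and for the same reason no replicate was left out and no normalization or filter on low counts was tried.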
